A study of Mus musculus with 36 samples.

Results

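Mural cells are the cells that wrap small blood vessels, and they comprise pericytes, which sit on capillaries, and vascular smooth muscle cells, which ring arterioles and venules. They were looked for in dissociated submandibular glands of mice that had been profiled by droplet RNA sequencing. A cell was taken as mural when it held a unique molecular identifier (UMI, a tag that counts single mRNA molecules) of Rgs5, UMIs of at least 2 of the 7 genes Acta2, Tagln, Myl9, Myh11, Pdgfrb, Notch3 and Sparcl1, and no UMI of the basal and myoepithelial keratins Krt14 and Krt5 or of the endothelial adhesion genes Pecam1 and Cdh5. The cells were thus selected on measured UMIs of these genes, which serve below as description, and no result is drawn from a test of them. Of 30082 deposited barcodes, 25993 passed a minimum of 100 genes with less than 15% of UMIs from mitochondrial genes. The rule found 125 mural cells among them, 120 in the Drop-seq glands and 5 in the glands profiled by CITE-seq, an assay that reads antibody tags beside RNA. They came from 27 of 30 glands, and no barcode of a mural cell occurred in a second library, although 21 kept barcodes occurred in 2 or more.

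The study compared control glands with double-mutant glands, which carry a beta-catenin gain-of-function (GOF) and a Bmpr1a loss-of-function (LOF) allele. Both genotypes carry K14-Cre and an EYFP reporter, and Cre is driven by the keratin 14 promoter, which is active in basal epithelium. Mural cells lie outside that layer. Glands were taken at postnatal day 40 (P40) or 90 (P90) for Drop-seq, with 6 control and 7 double-mutant glands at each stage from both sexes, and at P70 for CITE-seq, with 2 glands of each genotype. Each gland gave 1 library of live sorted cells, and Drop-seq cells had been fixed in methanol.

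In blood vessels, mural cells contract or relax in response to vasoactive ligands, deposit basement membrane together with the endothelium, and are recruited by endothelial PDGF-B through the receptor encoded by Pdgfrb. Notch3 signalling maintains their contractile state. Contractile smooth muscle is rich in smooth muscle actin, myosin and calponin-family proteins, whereas capillary pericytes hold less of these and more of genes such as Kcnj8, Abcc9, Higd1b and Cspg4. Rgs5, a regulator of G-protein signalling, is used as a marker of both.

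The upstream DNA of 2 of the genes that chose the cells is shown because smooth muscle genes are known to be bound by serum response factor at a 10-base motif called the CArG box. RefSeq sequences of GRCm38.p6 were at hand for 4 of the 8 genes of the rule, and the 250 bases before the transcription start are given 5′ to 3′ for the gene that every mural cell holds and for a myosin light chain gene of the contractile apparatus. The CArG box is in capitals.
Rgs5, chr1:169655251-169655500, plus strand: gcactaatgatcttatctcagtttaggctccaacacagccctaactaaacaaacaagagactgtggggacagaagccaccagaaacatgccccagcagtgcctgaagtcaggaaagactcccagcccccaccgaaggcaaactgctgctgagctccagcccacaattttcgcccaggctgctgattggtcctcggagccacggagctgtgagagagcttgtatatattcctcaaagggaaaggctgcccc
Myl9, chr2:156775214-156775463, plus strand: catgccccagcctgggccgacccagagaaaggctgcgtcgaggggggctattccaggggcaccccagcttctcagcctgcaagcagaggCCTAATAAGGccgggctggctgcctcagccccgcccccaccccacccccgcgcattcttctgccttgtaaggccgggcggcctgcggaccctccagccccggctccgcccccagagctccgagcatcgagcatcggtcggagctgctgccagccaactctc
Searched as CCWWWWWWGG, with W for A or T, the motif is the same pattern on both strands. It began 161 bases before the start of Myl9, as CCTAATAAGG, and was not found in the Rgs5 window. It was present in the same window of 1.62% of 27025 gene symbols, of 1 of 4 genes of the rule, of 1 of 21 contractile genes, of 1 of 19 pericyte genes and of 0 of 13 leading genes outside the rule. A match is a description of letters, and no match says only that these letters are not in this window.

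Mural cells held a median of 837 UMIs and 531 genes, with UMIs from 204 to 22244, against a median of 1489 UMIs in all other kept cells. Endothelial cells had a median of 834.5 UMIs and 546.5 genes, and fibroblasts 896 UMIs and 567.5 genes. Of the genes that chose them, a UMI was seen in 106 cells for Sparcl1, 100 for Acta2, 95 for Myl9, 92 for Myh11, 71 for Tagln, 37 for Notch3 and 23 for Pdgfrb. These counts follow from the rule and are descriptions. In the same kept cells, an Rgs5 UMI was present in 1.98% of 202 myoepithelial cells (exact 95% interval 0.542 to 4.99%, median 1071 UMIs). It was present in 0.689% of 8994 acinar cells (0.529 to 0.883%, median 4270 UMIs) and in 0.353% of 2553 immune cells (0.161 to 0.668%, median 758 UMIs). Of the 62 acinar and 9 immune cells with Rgs5, 27 and 2 were mural cells that also met those rules. Their presence raises both values as a background of the defining gene. Intervals cover counting error only.

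Values on either side of the rule's edge were as follows, in CPM, which is a gene's or list's share of all UMIs of the cells scaled to 1e+06. The 18 mural cells with exactly 2 of the 7 genes held 1509 CPM of the pericyte list and 2310 CPM of the contractile list, and 17 of them had a UMI of at least 1 leading gene outside the rule, a set itself picked from the mural cells. The 18 cells just outside, with Rgs5 and 1 of the 7 genes, held 543 and 824 CPM, and 7 of them had such a UMI. A further 109 kept cells with Rgs5 and none of the 7 genes held 137 and 583 CPM. The excluded genes kept out 18 cells, of which 10 held Pecam1, 7 Cdh5, 3 Krt14 and 3 Krt5. No doublet caller was run.

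Transcripts of secretory epithelium were present in most mural cells. A UMI of the acinar list, which holds secreted proteins such as Prol1 and Pip and also Dcpp1, Dcpp2 and Dcpp3, was seen in 110 of 125 cells. The list summed to 110537 CPM in mural cells against 154983 CPM in all other kept cells. The acinar marker Aqp5, a water channel, was found in 8 cells, and 27 mural cells also met the rule for acinar cells. Ptprc, which marks leukocytes, was found in 0 cells, although 26 cells held a UMI of the immune list (at most 28 in a cell) and 2 met the rule for immune cells. Epcam was found in 17, Krt18 in 18 and Krt8 in 9, so that 26 cells held at least 1 UMI of these epithelial genes and 99 held none. The 99 cells summed to 35978 acinar CPM and 14509 contractile CPM, and the 26 cells to 174581 and 3171 CPM. Endothelial genes outside the rule were seen as well, with a UMI of the endothelial list in 36 mural cells, at most 16 in a cell, and 582 CPM against 181 CPM in other kept cells and 10404 CPM in endothelial cells. The 5 genes of that list seen in at least 5% of mural cells were all at least 2-fold above other cells, as were 1581 of 3034 genes seen that often. The part of free RNA and of doublets in these values was not tested.

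Only 4 mural cells exceeded 10000 UMIs. The 3 from control P40 glands held 14327, 14935 and 15291 UMIs, of which 15.8%, 11.5% and 62.8% were of the acinar list, with 3, 29 and 17 Rgs5 UMIs. The other one, a double-mutant CITE-seq cell, held 22244 UMIs, 4369 genes, 1 Rgs5 UMI and 0.0584% acinar UMIs. The upper limit on genes that the study set for CITE-seq cells was not applied here and would have removed it. With these 4 left out, the contractile list stood at 11688 CPM in place of 8410 CPM and the pericyte list at 3652 CPM in place of 2606 CPM.

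Genes of contractile vascular smooth muscle were among those that led in mural cells. Leading genes were the 25 with the highest ratio of CPM in mural cells to CPM in other kept cells among genes seen in at least 10% of mural cells. The first was Olfr78, an olfactory receptor also known from vascular smooth muscle, with 23 UMIs in 22 mural cells and 13 UMIs in all other cells, a ratio of 636. Its relative Olfr558 was seen in 47 mural cells at 341 CPM, against 0.646 CPM elsewhere. Casq2, the calcium-storing calsequestrin of muscle, was seen in 37 cells at 200.1 CPM, and Pln, phospholamban, which restrains the calcium pump, in 20 cells at 123 CPM. Casq2 and Pln also had UMIs in myoepithelial cells, at 46.6 and 5.48 CPM, and none in endothelial or fibroblast cells. Des, the muscle intermediate filament desmin, was seen in 21 mural cells and the laminin receptor gene Itga7 in 15.

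The vasoactive list holds receptors and enzymes that set vessel tone. Gucy1a3, a leading gene and a subunit of the nitric oxide receptor, was seen in 49 mural cells at 391 CPM and at 1.03 CPM elsewhere. Its partner Gucy1b3 was seen in 25 cells at 146 CPM, the cyclic GMP phosphodiesterase Pde5a in 17 cells at 114 CPM, and Mrvi1, a leading gene outside that list that encodes a substrate of the cyclic GMP kinase, in 24 cells at 136 CPM. The endothelin receptor genes Ednra and Ednrb stood at 81.9 and 200.1 CPM, 101 and 65.9 times their level in other cells, and the angiotensin receptor gene Agtr1a had 5 UMIs in 5 cells. Among the 25 vasoactive genes, 13 were seen in at least 5% of mural cells and 10 of these were at least 2-fold higher than in other cells. Over all genes seen that often, 1581 of 3034 were.

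**Figure D1:**
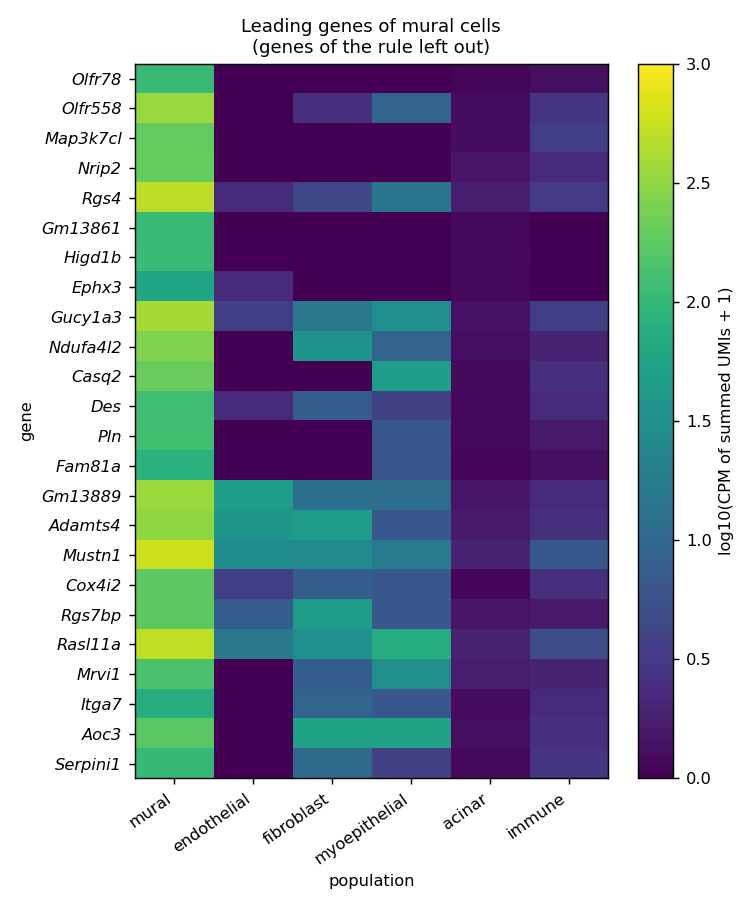
Level of each leading gene outside the rule (vertical axis) in mural, endothelial, fibroblast, myoepithelial, acinar and immune cells (horizontal axis), as log10 of CPM plus 1 of UMIs summed over all cells of a population. Mural cells are brightest in every line because the genes were chosen that way. Casq2, Rasl11a, Aoc3, Gucy1a3 and Mrvi1 also show a signal in myoepithelial cells. So do Aoc3, Adamts4, Rgs7bp and Ndufa4l2 in fibroblasts, and Gm13889 and Adamts4 in endothelial cells, among others. Acinar and immune cells here include the 27 and 2 mural cells that also met those rules.

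Genes held by capillary pericytes were present but thin. Rgs4, a second regulator of G-protein signalling, was seen in 57 mural cells, Ndufa4l2 and Cox4i2, which encode mitochondrial proteins, in 40 and 28, Higd1b in 22 and Cspg4, the NG2 proteoglycan, in 17. The channel subunits Abcc9 and Kcnj8, by contrast, had UMIs in 5 and 2 cells. Of 25 pericyte genes 22 had a UMI and 12 were seen in at least 5% of mural cells, all 12 at least 2-fold above other cells. Of 25 contractile genes all 25 had a UMI and 22 were seen in at least 5% of cells, all 22 at least 2-fold above other cells. The contractile list was not particular to mural cells, with 11197 CPM in myoepithelial cells against 8410 CPM in mural cells. It summed to 1628 CPM in fibroblasts, 965 CPM in endothelial, 464 CPM in immune and 230 CPM in acinar cells. Over all 3034 genes seen in at least 5% of mural cells, 1581 were at least 2-fold higher and 49 at most 0.5 times as high, with a median log2 ratio of 1.05. The cells had been chosen by genes of these kinds, so the counts are read beside that background and carry no test.

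Matrix and signalling genes were described from lists in the same way, beside the background of 1581 of 3034 genes at least 2-fold above other cells. For the basement membrane, Col4a1, Col4a2 and Sparc stood at 273, 150.1 and 1046 CPM, and 10 of 10 genes seen in at least 5% of cells were at least 2-fold above other cells. In endothelial cells the same list summed to 4664 CPM against 2038 CPM in mural cells. Of the fibrillar matrix list, 5 of 6 genes seen in at least 5% of cells were at least 2-fold above other cells, with a sum of 987 against 292 CPM. The list summed to 23318 CPM in fibroblasts, 2063 CPM in myoepithelial, 675 CPM in endothelial, 346 CPM in immune and 35.2 CPM in acinar cells. Col1a2 was seen in 21 mural cells and Col3a1 in 9 at 1.05 times its level in other cells, and the fibroblast gene Dcn in 7. Notch pathway genes included the targets Heyl (7 cells), Nrip2 (36 cells) and Nrarp (26 cells), at 68.4, 454 and 79.8 times their level elsewhere. Among chemokines and cytokines, Il6 was seen in 14 mural cells at 141 CPM and 79.0 times its level in the pool of other kept cells. Cxcl12, a chemokine that retains leukocytes, was seen in 19 cells at 6.41 times. That list summed to 1428 CPM in mural cells, below 8941 CPM in immune cells, 3519 CPM in fibroblasts and 2812 CPM in endothelial cells. Myoepithelial and acinar cells were lower, at 1299 and 259 CPM. Wnt and Bmp genes were led by Id3, a target of Bmp signalling, in 85 cells at 1228 CPM, 15 times its level elsewhere. They summed to 2233 CPM in mural cells, 2625 CPM in fibroblasts and 2490 CPM in endothelial cells. Lower sums of 1910, 1148 and 376 CPM were seen in myoepithelial, immune and acinar cells. The Bmp ligand gene Bmp2 was seen in 11 cells, and Bmpr1a itself in 8 with 10 UMIs. Of the reporters, Cre had no UMI in mural cells and EYFP had 18 UMIs in 12 cells, 81.9 CPM against 48.0 CPM in other cells.

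Immediate early genes can be induced by dissociation of tissue. Of the 3034 genes seen in at least 5% of mural cells, 1581 were at least 2-fold above other cells. All 21 immediate early genes were seen that often, and 9 of them were at least 2-fold above other cells. Their median log2 ratio was 0.81 against 1.05 over all genes. They summed to 15210 CPM against 7933 CPM in other kept cells and 19278 CPM in endothelial cells. Nr4a1 was seen in 92 mural cells at 1246 CPM and 9.08 times its level in other cells, and Fos in 101 at 2633 CPM. Their part in the other values was not tested.

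Within the mural cells, the presence of a Myh11 UMI went with contractile genes. Myh11, smooth muscle myosin heavy chain, was seen in 92 cells (median 868 UMIs) and not in 33 (median 709 UMIs). The contractile list summed to 9833 CPM (exact 95% Poisson interval 9358 to 10327) with Myh11 and 4328 CPM (3804 to 4904) without, whereas the pericyte list stood at 2583 (2342 to 2841) and 2674 CPM (2266 to 3134). Olfr78 and Map3k7cl had 23 and 42 UMIs in cells with Myh11 and none in those without, where a count of 0 allows up to 52.8 CPM. Tpm2, a tropomyosin of smooth muscle, stood at 1129 and 264 CPM.

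Other genes lay the opposite way. Sparc stood at 871 CPM (734 to 1027) with Myh11 and 1548 CPM (1242 to 1907) without, Col4a1 at 190.2 and 510.2 CPM, and Steap4 at 79.7 and 281 CPM. Art3 had 1 UMI in the 92 cells and 6 UMIs in the 33. The fibrillar matrix list summed to 785 and 1566 CPM. Without the 4 cells over 10000 UMIs, left out after the values were seen, the contractile list stood at 13143 CPM (12498 to 13813) with Myh11 and 6705 CPM (5870 to 7626) without, the pericyte list at 3436 (3110 to 3786) and 4393 CPM (3722 to 5149), and Sparc at 1123 (940.0 to 1331) and 2514 CPM (2014 to 3101). These cells were pooled over glands, Myh11 is a gene of the rule, and a missing UMI at this depth does not show a missing transcript, so the split describes a range and not 2 cell types. Cells without Myh11 were not free of contractile genes, since 21 of 33 held Acta2 and 26 of 33 held Cald1.

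**Figure D2:**
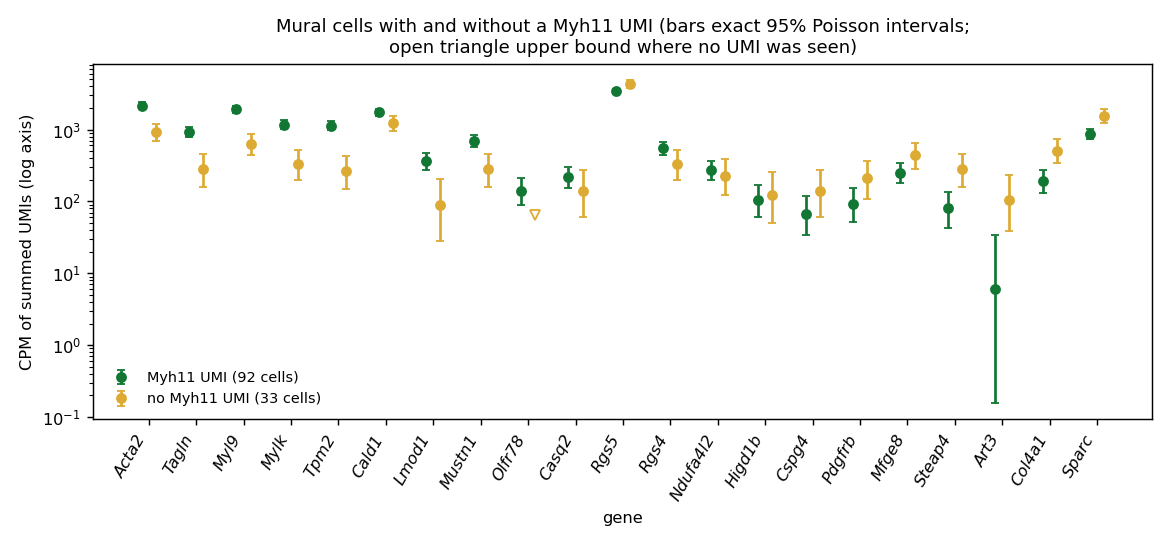
CPM (vertical axis, log scale) of contractile, pericyte and matrix genes (horizontal axis) summed over the 92 mural cells with a Myh11 UMI (green) and the 33 without (yellow), with exact 95% Poisson intervals that cover counting error only. Tagln, Mylk, Tpm2 and Lmod1 are lower without Myh11, Steap4, Art3, Col4a1 and Sparc are higher, and the intervals overlap for Mfge8, Ndufa4l2, Higd1b and Cspg4.

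Drop-seq glands held 777537 to 7013325 UMIs in all and 606 to 1209 kept cells. Of the sex-linked genes, Xist and Y-linked transcripts went against the label in 2 double-mutant glands of the same batch, P40 replicate 1 and P90 replicate 5. Every CITE-seq gland held both kinds, with 159 to 213 UMIs of Xist and 51 to 148 of Y-linked genes, and why was not tested. One further gland, double-mutant P90 replicate 4, had 8.71% ribosomal protein UMIs, the highest of the Drop-seq glands. All control P90 glands were in batches 7 to 9 and all control P40 glands in batches 12 to 14, and the stages of control glands cannot be told apart from their batches. In a dissociated gland, fewer mural cells and fewer UMIs per mural cell cannot be told apart either. Nothing in the labels says more of the animals than 1 gland per library, so p-values measure the spread between these glands.

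Mural cells made up under 2% of kept cells in every gland, and their share did not differ by genotype beyond the spread between glands. The lowest, median and highest P40 shares were 0.0872, 0.267 and 1.06% in control glands, and 0.208, 0.580 and 1.97% in double-mutant glands. The ranges overlapped, and the means of 0.490% ± 0.443 (SD, n = 6) and 0.882% ± 0.630 (SD, n = 7) differed with p = 0.233 (two-sided exact permutation test, adjusted p = 0.544 over 7 contrasts). At P90 control glands lay between 0.288 and 0.609% with a median of 0.543%, and double-mutant glands between 0 and 0.818% with a median of 0.139%. Here the means were 0.483% ± 0.145 (SD, n = 6) and 0.291% ± 0.329 (SD, n = 7), with p = 0.212 in the same exact test. Double-mutant P90 replicates 1 and 7 held none, 0 of 1067 and 0 of 680 cells, which allows shares of up to 0.281 and 0.441% (3 counts of the total). Over both stages the share was 0.487% ± 0.314 (SD, n = 12) in control and 0.586% ± 0.572 (SD, n = 14) in double-mutant glands (permutation test, p = 0.608, adjusted p = 0.718).

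Between stages, double-mutant glands held fewer mural cells at P90 than at P40, a difference of -0.590 percentage points with p = 0.0437 in the exact permutation test, but the adjusted p was 0.306. Control glands differed by -0.00724 percentage points (exact permutation test, p = 0.981). A test of the difference between these stage changes gave p = 0.101 by exact permutation over glands within genotypes. Median UMIs per mural cell were 837 at P40 and 400 at P90 in double-mutant glands. Each cell was therefore also thinned to 500 UMIs, and cells with fewer were left out, as in all thinned values below. Double-mutant glands held 51 mural cells at P40 and 17 at P90 before this step, and 31 and 8 after it. The difference among the cells that remained was -0.343 points (exact permutation test, p = 0.175). Without thinning, the difference was -0.656 points within batches 11, 12 and 13, which hold double-mutant glands of both stages (p = 0.206 by permutation). Without the 2 glands at odds with their sex labels it was -0.647 points (exact permutation test, p = 0.0649).

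**Figure D3:**
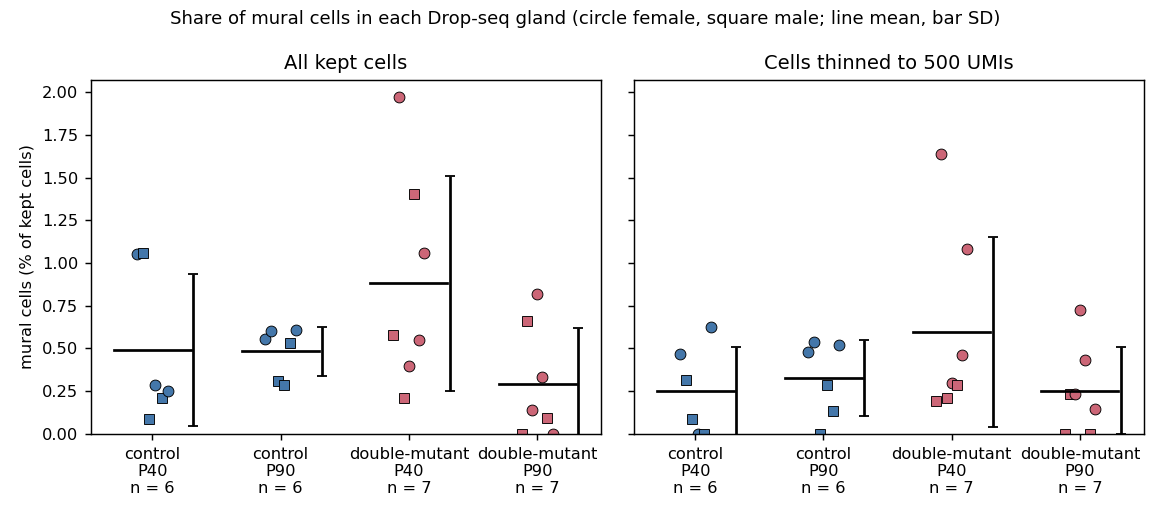
Mural cells as a percentage of kept cells in each of 26 Drop-seq glands (vertical axis) by genotype and stage (horizontal axis). All cells are on the left, and cells thinned to 500 UMIs, with shallower cells left out, on the right. Circles stand for females, squares for males, lines for means and bars for SD, which end at 0. The highest gland is double-mutant P40 replicate 2 at 1.97%, and all 4 groups overlap.

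By sex, no contrast passed after adjustment. In thinned cells the share was 0.438% ± 0.221 (SD, n = 6) in female and 0.138% ± 0.138 (SD, n = 6) in male control glands (exact permutation test, p = 0.0238), and 0.627% ± 0.507 (SD, n = 8) and 0.154% ± 0.124 (SD, n = 6) in double-mutant glands (p = 0.0300 in the same exact test). Both adjusted p-values were 0.105, and the groups overlapped in each genotype. Without the 2 double-mutant glands at odds with their sex labels, the double-mutant values were 0.655% ± 0.541 (SD, n = 7) and 0.146% ± 0.136 (SD, n = 5), with p = 0.0556 in the exact permutation test. Without thinning the shares were 0.559 and 0.415% in control glands (exact permutation p = 0.422) and 0.659 and 0.490% in double-mutant glands (exact permutation p = 0.615). At 1000 UMIs per cell the exact permutation p was 0.0584 in control and 0.214 in double-mutant glands. Thinning can also drop the UMI of an excluded gene, so that double-mutant P90 replicate 7 held 1 mural cell when thinned and 0 before.

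Mural cells were next set against endothelial cells, the other cell type of the vessel wall, of which 536 were kept. Endothelial cells held a UMI of Pecam1 or Cdh5, further UMIs among Cldn5, Egfl7, Flt1, Kdr, Emcn and Esam, and none of Rgs5, Krt14 or Krt5. In glands with at least 10 endothelial cells, control glands held 13.3, 22.0 and 27.0 mural cells per 100 endothelial cells at P40 and 37.5, 38.5 and 40 at P90, the last 3 all from females. Double-mutant glands held 10.3 to 42.4 with a median of 18.8 at P40, and 0, 3.45, 4.17 and 15.4 at P90. At P40 the genotypes overlapped and at P90 they did not. Over both stages the means were 29.7 ± 10.8 (SD, n = 6) and 15.7 ± 12.1 (SD, n = 11), with p = 0.0341 in the exact permutation test and an adjusted p of 0.0796 over 7 contrasts. At P90 alone the exact p was 0.0286, the smallest that 3 against 4 glands allow, with the same adjusted p, and without the gland at odds with its sex label it was 0.1, the smallest that 3 against 3 allow.

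That difference depended on which glands entered. With at least 5 endothelial cells per gland, a limit tried after the values were seen, double-mutant P90 replicates 1, 2 and 4 entered with 0, 80 and 100, and the means at P90 became 38.7 (n = 3) and 29.0 (n = 7) with an exact permutation p of 0.725. With cells thinned to 500 UMIs, only control P40 replicates 1 and 2 and double-mutant P40 replicates 1, 2, 4, 5, 6 and 7 kept at least 10 endothelial cells. Among these the ratio was 5.30 higher in double-mutant glands (exact permutation p = 0.643), which says nothing of P90. Within batches the difference was -7.11 with p = 0.501 by permutation. Only batches 12 and 14 entered there, and their control glands were all from P40. The denominator itself moved, since endothelial cells made up 1.39% ± 1.55 (SD, n = 12) of kept cells in control and 2.88% ± 1.90 (SD, n = 14) in double-mutant glands (permutation test, p = 0.0365). Pooled over glands the ratio was 26.2 at P40 and 52.1 at P90 in control, and 21.3 and 15 in double-mutant glands.

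**Figure D4:**
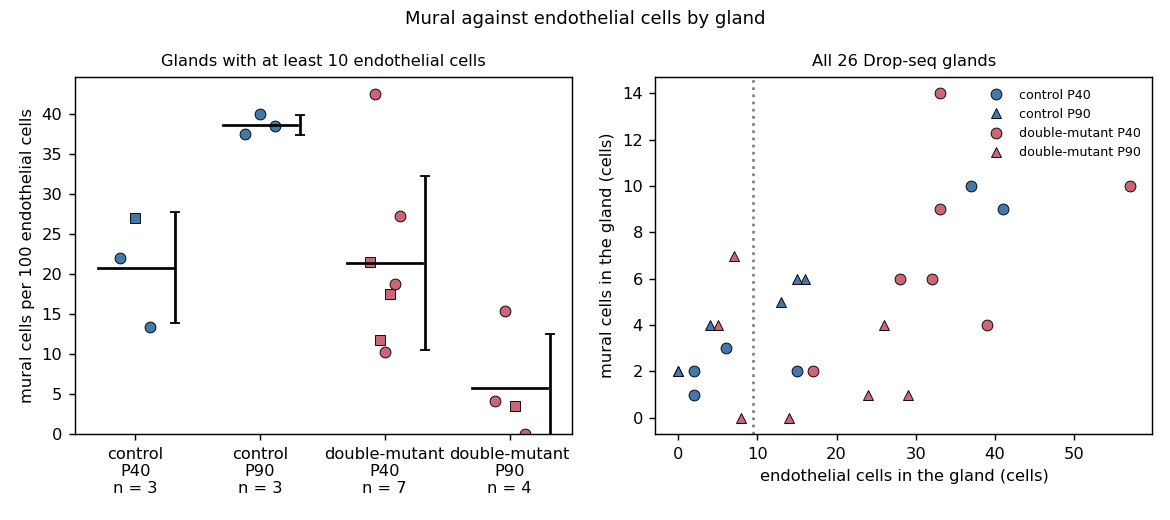
Left, mural cells per 100 endothelial cells (vertical axis) in glands with at least 10 endothelial cells, by genotype and stage (horizontal axis), with circles for females, squares for males, lines for means and bars for SD, which end at 0. Right, mural cells (vertical axis) against endothelial cells (horizontal axis) in all 26 Drop-seq glands, with circles for P40, triangles for P90 and a dotted line at the limit of 10, left of which lie double-mutant P90 glands with 7 and 4 mural cells.

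Gene levels in mural cells were compared by genotype over 11 glands with at least 5 mural cells, 5 control and 6 double-mutant, with sex and stage as covariates. The only double-mutant P90 gland among them was the one high in ribosomal UMIs. After the filter on low counts 154 genes were tested by edgeR's quasi-likelihood method, 6 of them genes of the rule. Of the 154, 8 (5.19%) had an unadjusted p under 0.05, 1 of them the rule gene Rgs5. At a Benjamini-Hochberg adjusted p of 0.05 just 1 gene passed, 0.649% of the genes tested. The one gene was Klk1b26, a kallikrein secreted by the granular ducts of the submandibular gland and not a mural gene.

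Klk1b26 levels in the mural cells of control glands were 13720 CPM in P40 replicate 2, 0 in P40 replicate 1, and 1255, 422 and 682 CPM in P90 replicates 1, 2 and 6. All 6 double-mutant glands held 0 UMIs. The groups touched at 0 in P40 replicate 1, and the log2 fold change was -8.67 ± 1.11 (SE), with an adjusted p of 0.00814. Pooled over glands it was at least 124-fold lower in double-mutant glands by the limit that 0 UMIs allow over the group (3 counts), and at least 7.61-fold lower without control P40 replicate 2, which alone gave 412 of 426 control UMIs. In all other cells of the same glands Klk1b26 stood at 42.5 to 7228 CPM in control and 9.69 to 159 CPM in double-mutant glands, and 420 of its 457 UMIs in all mural cells lay in the 26 cells with an epithelial UMI. With those cells taken out no gene passed by genotype, by stage or by sex in edgeR. In DESeq2 the log2 fold change of Klk1b26 was -6.07 with an adjusted p of 0.816. When single glands were left out in turn, Klk1b26 passed in the 5 fits that kept it (-8.98 to -8.19) and fell below the filter on low counts in the others, which left out control P90 replicate 1, control P40 replicates 1 and 2, or double-mutant P40 replicates 1, 2 and 6. Klk1b26 is one of a family of near-identical kallikrein genes whose reads the counting could split, and Klk1b22 and Klk1b5 lay the same way with adjusted p-values of 0.101 and 0.199.

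No gene of the contractile list passed by genotype. All 5 contractile genes tested had positive log2 fold changes, from 0.14 ± 0.50 (SE) for Cald1 to 0.74 ± 0.51 (SE) for Mylk, beside 78 of 154 genes above 0 in all. The genes of the rule are given as values only, since each cell was chosen by them. The median over the contractile list was 0.19 and over all genes tested 0.01. Rgs5 ranged from 1632 to 5485 CPM in the 5 control glands and from 2441 to 14767 CPM in the 6 double-mutant glands. The glands overlapped, and pooled over glands it stood at 2533 and 7056 CPM. None of the 25 pericyte genes and none of the 25 vasoactive genes reached the filter, so these lists were not testable by genotype at this depth. Id1 and Id3, the Bmp targets tested, had log2 fold changes of -0.12 ± 1.03 and -0.06 ± 0.49 (SE).

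Mgp, matrix Gla protein, which vessel walls use against calcification, had the lowest p after 2 kallikreins. Control glands held 230.6 and 33.3 CPM in P40 replicates 1 and 2, and 0, 211 and 1535 CPM in P90 replicates 1, 2 and 6. Double-mutant glands held 2247 CPM in P90 replicate 4 and 1064, 3165, 2537, 1121 and 781 CPM in P40 replicates 1, 2, 5, 6 and 7. Only control P90 replicate 6 lay within the range of double-mutant glands. The log2 fold change was 2.59 ± 0.75 (SE), with an adjusted p of 0.199 in edgeR and 0.0104 in DESeq2, and it ranged from 2.02 to 3.40 with each gland left out in turn, passing in edgeR without control P90 replicate 6 (adjusted p = 0.0182) and in no other of these fits. In all other cells of the same glands Mgp was at 12 to 41.8 CPM in control and 17.6 to 476 CPM in double-mutant glands, and its UMIs in fibroblasts numbered 3 to 83 over 3 to 11 cells in control glands and 14 to 418 over 8 to 26 cells in 5 of the double-mutant glands, with more again in replicate 6 at P40, which held 30 fibroblasts. The part of these levels in the mural values was not tested.

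**Figure D5:**
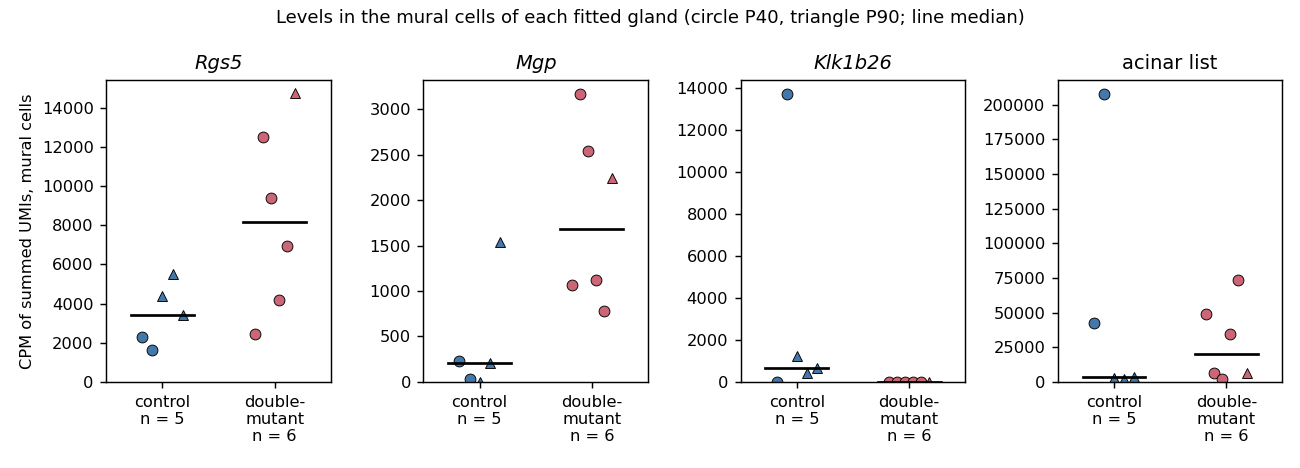
CPM of UMIs summed over the mural cells of each fitted gland (vertical axes, each from 0) for Rgs5, Mgp, Klk1b26 and the summed acinar list, by genotype (horizontal axis), with circles for P40, triangles for P90 and lines for medians. Klk1b26 is at 0 in all 6 double-mutant glands and at 13720 CPM in a single control gland, and the acinar list reaches 207799 CPM in that same gland.

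By stage no gene passed, at 0% of 154, while 15 (9.74%) had an unadjusted p under 0.05 in edgeR and 6 passed in DESeq2. The 5 genes of the acinar list tested were Dcpp1, Dcpp2, Dcpp3, Pip and Prol1. All had log2 fold changes below 0 at P90, with a median of -4.06, and Pip had the lowest p at -4.55 ± 1.46 (SE, edgeR adjusted p = 0.279). The study placed Dcpp1-positive cells of control glands in a luminal cluster of their own, more abundant at P40 than at P90. The summed acinar list was 42308 and 207799 CPM in the mural cells of control P40 replicates 1 and 2 and 2321 to 3241 CPM in those of the control P90 glands. Dcpp1 and Dcpp3 stood at 48387 and 43491 CPM in control P40 replicate 2 and at 0 in replicate 1. In the double-mutant glands of the fit it was 2029 to 73372 CPM at P40, with replicates 2 and 5 at 6406 and 2029 CPM, and 6421 CPM in the single P90 gland, so there the stages overlapped. The median over 5 contractile genes was 0.02, against 0.05 over all genes tested.

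By sex, 1 gene passed, again Klk1b26, higher in male glands at 9.04 ± 1.46 (SE, log2) with an edgeR adjusted p of 0.0416, 0.649% of the genes tested, and 10 (6.49%) had an unadjusted p under 0.05. It did not pass without the 2 glands at odds with their labels, where it fell below the filter, or in DESeq2 (3.93, adjusted p = 0.861), or in 9 of 11 fits that left out 1 gland. Of 3 male glands only control P40 replicate 2 held a UMI of it, and 1 of the others is the gland at odds with its sex label. Of 5 contractile genes 4 had log2 values below 0 in males and none passed, beside 58 of 154 genes below 0 in all. Myl6, a myosin light chain, stood at -1.14 ± 0.45 (SE, edgeR adjusted p = 0.674). Of 12 immediate early genes 10 had values above 0 and none passed, beside 96 of 154 in all, among them Jund at 2.14 ± 0.88 and Junb at 1.08 ± 0.48 (SE, both with an edgeR adjusted p of 0.674).

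Whether genotype effects differed between mural and endothelial cells was tested in the 11 glands that held at least 5 of each, with gland as a block. Of 135 genes 0 passed, 0% of those tested, and 10 (7.41%) had an unadjusted p under 0.05 in edgeR. Fosb had a difference of 1.58 ± 0.51 (SE, log2), with an edgeR adjusted p of 0.332. Among the 10 was also Flt1, an endothelial receptor of VEGF, at -3.22 ± 1.07 (SE). Since Flt1 helped to choose the endothelial cells, it is given as a value only. Rgs5, which endothelial cells lacked by their rule, was among the 135 genes as well.

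Whole glands had also been sequenced in bulk, a control female at P70 and a double-mutant female at P100, 1 gland each, so that genotype and age cannot be told apart and no test is possible. Rgs5 stood at 14.1 and 12.6 CPM and Sparcl1 at 29.5 and 29.5 CPM, while Acta2 stood at 56.1 and 21.3 CPM and Myh11 at 59.5 and 23.2 CPM. Acta2 and Myh11 are shared with myoepithelial cells, in which Acta2 reached 4480 CPM in the single-cell data, so their bulk levels are not those of mural cells alone.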

How the data were processed

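Drop-seq, CITE-seq and bulk RNA-seq files were deposited by the authors as raw counts: UMI counts per gene and barcode, antibody tag counts per barcode and read counts per gene. Per the labels and the study's methods, reads were aligned to mm10 with STAR, UMIs were collapsed with Drop-seq tools, and bulk reads were counted with featureCounts. By the study's methods, human spike-in cells were removed from its CITE-seq output. Whether any remained in the deposited tables was not tested. Here, barcodes with at least 100 genes and under 15% mitochondrial UMIs were kept. The rule for members and all gene lists were chosen with earlier results of these data known. Groups came from the labels. Shares were compared by permutation over glands (100000 draws where both groups held 10 or more, otherwise all arrangements, and 10000 draws within batches or blocks), and 95% intervals are exact (Clopper-Pearson or Poisson), and limits for a count of 0 use 3 counts. UMIs were summed over mural cells per gland and fitted in edgeR 4.0.16 (TMM, filterByExpr, quasi-likelihood, Benjamini-Hochberg). DESeq2 1.42.0 and a mixed model in lme4 1.1.37 were alternatives. Fits were tested on simulated data. Named genes were the 8 rule genes, the 25 leading genes, list genes with an adjusted p under 0.05 and up to 10 per direction, and otherwise the 10 of lowest p as values. List genes were given to show each list. No unmapped sample column was used.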

Additional observations from a re-analysis of the deposited data

Results flagged for a closer look

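Antibody tags were read beside RNA in the 5 mural cells of the CITE-seq glands and enter no comparison above. Tags of CD29, the integrin beta-1 chain that binds matrix, stood out, with a median percentile of 99.5 among the other cells of the same library by share of tags. In the 4 control cells CD29 took 59.7, 37.8, 58.0 and 43.3% of all tags, at the 100, 98.6, 99.7 and 99.5 percentiles, against medians of 4.05 and 3.76% in the other cells of the 2 libraries. The isotype control tag mIgG2a took 1.38, 0.976, 0.234 and 0.691% in the same cells. Over all 5 mural cells, another isotype control tag, AH IgG, numbered 3 to 14 tags a cell, at a median percentile of 19.9. Tags of CD29 numbered 3 to 1385 in these 5 cells. The double-mutant cell, which held 22244 UMIs and 1 Rgs5 UMI, had 3 CD29 tags of 7230, the 5th percentile, and 40.7% of its tags were of CD71, the transferrin receptor. Tags of Notch3, whose gene is in the rule, lay at a median percentile of 45.5, from 20.9 to 73.1, and tags of EpCAM at 13.8. With 5 cells and 1 of them from a double-mutant gland, no comparison of genotypes was made.

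No gland stood apart from its group in the share of mural cells, the thinned share, the ratio to endothelial cells or the median UMIs of mural cells by Dixon's test, in the 14 groups that held 4 or more glands. Control glands were too few for it in the ratio. Chance marks about 1 in 20 such groups.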

How the results depend on the processing

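With 125 mural cells the fits saw few genes, and a gene that did not pass may still differ. The share of mural cells by genotype, thinned or not, kept its direction and its side of 0.05 under every alternative run, including a binomial mixed-effects model (log odds 0.0192). Replicate numbers were not taken to pair the glands. Deviations of whole glands with the same number in different groups correlated from -0.34 to 0.51 (median 0.07), with 15 of 37 pairs over 0.1. Pairs with different numbers correlated from -0.58 to 0.61 (median -0.03), with 73 of 216 over 0.1. With a replicate block the share differed by 0.109 points, the thinned share by 0.105, mural cells per 100 endothelial cells by -5.74 (p = 0.516 by permutation), and 11 genes passed by genotype, Mgp among them (log2 3.22, adjusted p = 0.00485), 1 by stage and 15 by sex.

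Mural cells per 100 endothelial cells by genotype came to 5.30 after thinning, which left P40 glands alone, and -7.11 within batches 12 and 14 (permutation p = 0.643 and 0.501). The difference was -7.44 with at least 5 and -22.7 with at least 1 endothelial cell (permutation p = 0.559 and 0.0818). At P90 the difference was -36.1 without the 2 glands at odds with their sex labels, -9.65 with at least 5 and -25.0 with at least 1 endothelial cell, and between stages in double-mutant glands it turned to 7.65 under both minimums. The stage difference of the share in double-mutant glands was -0.647 without those 2 glands (p = 0.0649), -0.656 within batches (p = 0.206), -0.678 without the ribosomal library (p = 0.0256) and -0.754 without all 3 (p = 0.0455), and the thinned one, with p = 0.175 over all glands, was -0.540 without all 3 (p = 0.0368), all by permutation. Of these, the thinned, within-batch and block values by genotype were planned, and the others were chosen after seeing the data.

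Genes passing by genotype numbered 14 with no filter on low counts, 2 without the ribosomal library, and 0 with at least 3 cells per gland, with cell number as a covariate, without the 2 glands at odds with their labels or without members holding epithelial UMIs. DESeq2 also called 1 gene, Mgp in place of Klk1b26. By stage there were 2 with no filter, 5 with cell number as a covariate and 6 in DESeq2. By sex there were 10 with no filter and 0 with cell number, without the 2 glands, without the ribosomal library, without epithelial members and in DESeq2. Leaving out single glands gave 0 to 4 genes by genotype, 0 to 1 by sex and 0 by stage. The mural and endothelial contrast gave 10 genes with at least 10 cells per gland, where 3 glands and 1 residual degree of freedom were left. The cause of these changes was not tested. At least 10 cells per gland, batch in place of stage and added CITE-seq glands, none of which held 5 mural cells, could not be fitted by genotype.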
